A study of Rattus norvegicus with 6 samples.

Results

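Plasminogen is turned into the protease plasmin by 2 activators, tissue plasminogen activator (Plat) and urokinase (Plau), and this report follows their genes in cultured vascular smooth muscle (VSM) cells of young and old rats. With them go the urokinase receptor gene Plaur, the serpin genes Serpine2 and Serpinf1, and Anxa2 and S100a10, whose products form the annexin A2 complex on the cell surface. These 7 genes were taken by symbol, and 7 of 7 were found among the 14475 genes of the count table, each in a single row. The VSM cells came from the soleus feed artery (SFA), which supplies the soleus muscle, of male Fischer 344 rats aged 4 months (young, n = 3 rats) or 24 months (old, n = 3 rats). They were grown in medium with fetal bovine serum, and 1 library was made from the poly(A) RNA of each culture. The labels and methods state no genetic change and no treatment of these rats, so age is the only factor they name. Other differences between the cultures cannot be told apart from age. The values describe cells in culture and not the wall of the artery.

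Plasmin dissolves fibrin and cuts matrix proteins such as fibronectin and laminin. Smooth muscle cells make their own activators and inhibitors, and pericellular plasmin is best known in the vessel wall for its part in the migration of these cells and in remodeling after injury. Serpins are protease inhibitors that act by being cut and trapping the enzyme, while receptors such as the urokinase receptor and the annexin A2 complex hold activators or plasminogen at the cell surface.

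The libraries held 44235674 to 59700887 counts on genes, and the 7 genes together took 0.184% to 0.264% of them. Levels are given as CPM, the counts scaled to a common library size, after TMM normalization, which corrects library size for composition. CPM is not corrected for transcript length, so a level is compared between libraries and never between genes. As a check of the label, 10 of 10 smooth muscle markers were in the table, with a summed level of 17065 to 28767 CPM in young and 6241 to 9476 CPM in old. Of 12 fibroblast markers, 11 were in the table, with sums of 16159 to 22193 CPM in young and 30560 to 34248 CPM in old. The corresponding sums were 131 to 386 CPM in young and 36.5 to 92.8 CPM in old for 8 of 12 endothelial markers, most of it Eng in the young libraries, and 5.13 to 16.0 CPM in young and 10.4 to 16.8 CPM in old for 3 of 12 macrophage markers. The endothelial markers Pecam1 and Vwf stayed below 1 CPM in each library, and Cdh5 and the leukocyte marker Ptprc were not in the table under these symbols.

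None of the 7 genes was differentially expressed between old and young VSM cells. A DEG was defined by edgeR's quasi-likelihood test across all genes, with an adjusted p under 0.05 and a log2 fold change of 1 or more in either direction. Of the 7 genes 0 were DEGs, as were 0.00691% of all genes. At an unadjusted p under 0.05 edgeR also found 0 of the 7, where 22.6% of all genes passed. DESeq2 called 0 of the 7, where it called 5.56% of all genes, and it gave 1 of them, Serpinf1, an unadjusted p under 0.05. limma-voom called 0 DEGs in the whole table and gave 0 of the 7 an unadjusted p under 0.05. For 7 of the 7 the levels of young and old libraries overlapped, whereas the groups stood apart for 29.2% of all genes. Their log2 fold changes lay between -0.33 and 0.60. The median was -0.084, compared with 0.018 over all genes. The median absolute log2 fold change was 0.29 in the 7 genes and 0.26 over all genes.

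**Figure D1:**
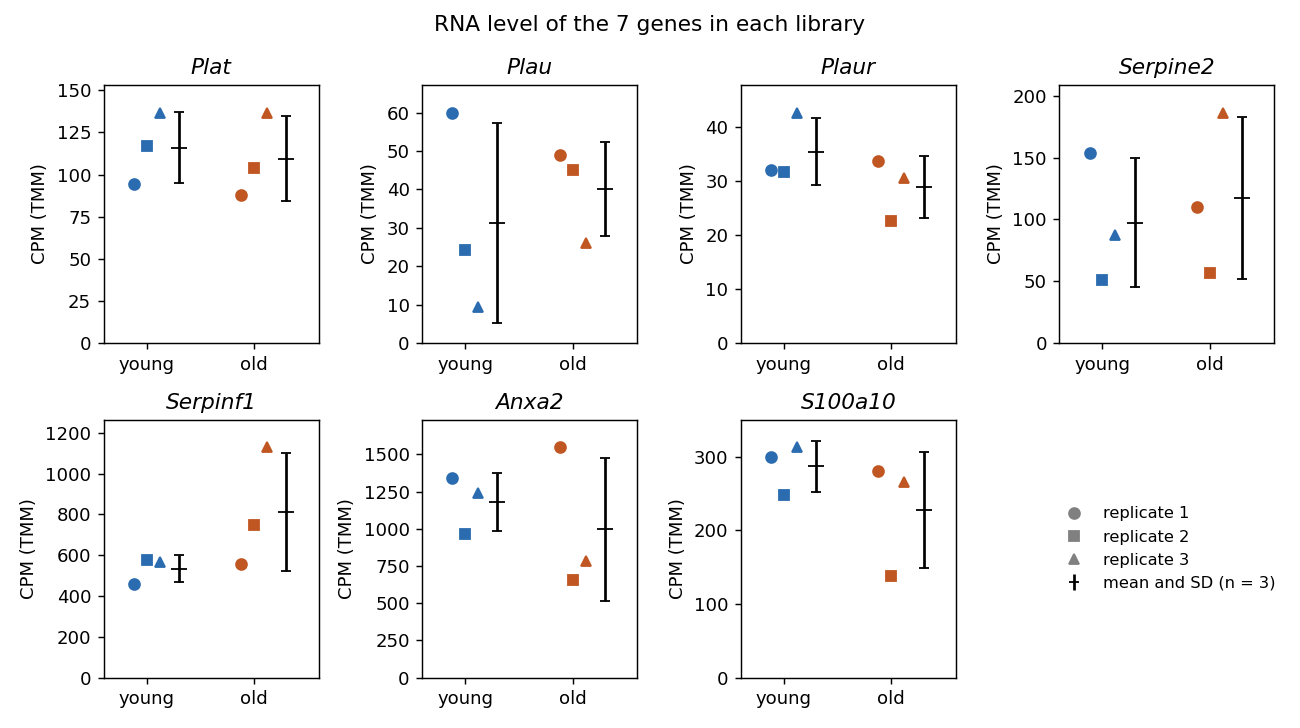
Level of each of the 7 genes in CPM (y axis, linear from 0) in the 3 young and 3 old libraries, with a symbol for each replicate and bars for the mean and SD (n = 3). The 2 groups overlap in every panel, and Plau spreads from 9.46 to 60.0 CPM among the young libraries.

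The activator gene Plat was at 94.5, 117 and 137 CPM in young replicates 1, 2 and 3 and at 87.7, 104 and 137 CPM in old replicates 1, 2 and 3. Both groups covered the same range. The young mean was 116 ± 21.1 CPM and the old mean 109 ± 25.1 CPM (SD, n = 3 each), and the old level was 0.943 times the young level (95% interval 0.669 to 1.33). This is a log2 fold change of -0.084 with a standard error of 0.21 (edgeR, adjusted p = 0.826). Plat is also a gene of endothelial cells. The summed endothelial markers were lower in each old library than in any young library. Without Eng, a sum taken after the values were seen, the other 7 markers were at 36.8 to 45.6 CPM in young and 31.6 to 44.9 CPM in old, which overlapped. Of these 7, 3 were higher and 4 lower in old. Flt1, among the lower, was at 2.64, 7.56 and 10.5 CPM in young and 0.804, 0.154 and 0.448 CPM in old. Its log2 fold change was -3.87 (adjusted p = 0.0732 from edgeR), and DESeq2 called it. Tek, among the higher, was at 9.79, 2.64 and 12.5 CPM in young and 14.4, 11.3 and 16.8 CPM in old. The log2 fold change of Tek was 0.77 (adjusted p = 0.404 from edgeR). The part of endothelial cells in the Plat values was not tested.

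The urokinase gene Plau varied far more among replicates than between ages. It was at 60.0, 24.2 and 9.46 CPM in the young libraries and at 49.1, 45.0 and 26.1 CPM in the old libraries. These values rest on 2710, 1455 and 465 counts in young and 2441, 2339 and 1399 counts in old, and the lowest and the highest library were both young. The coefficient of variation was 83.3% in young and 30.6% in old, compared with medians over all genes of 11.8% and 16.8%. The log2 fold change of 0.36 had a standard error of 0.63 (adjusted p = 0.751 from edgeR), and its 95% interval, -1.15 to 1.87, holds changes of more than 1 in either direction. Single libraries set this value. It was -0.071 without young replicate 3 and 1.25 without young replicate 1, where the unadjusted p was 0.0434 and the adjusted p 0.287 from edgeR.

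Plau is made by macrophages as well as by VSM cells. Its levels across the 6 libraries were most like those of Csf1r, a macrophage receptor gene (Pearson's r = 0.987). This ranking was among all genes outside the 7 with a mean of at least 1 CPM. Rab32, which is not on the list of macrophage markers, came next with r = 0.981. Any technical difference between the libraries enters both genes of such a pair. Csf1r was at 2.48, 1.16 and 0.285 CPM in young and 1.81, 2.21 and 1.21 CPM in old, which is 14 to 115 counts per library. Of 12 macrophage markers, 9 were not in the table. The other macrophage markers with values were Cd68, below 1 CPM in each library, and Cd14, at 4.72 to 13.9 CPM. Their part in the Plau values was not tested.

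The receptor gene Plaur was at 32.0, 31.7 and 42.7 CPM in young and at 33.8, 22.5 and 30.6 CPM in old. The highest library was young replicate 3 and the lowest old replicate 2, with the other 4 within a narrow band. The young mean was 35.5 ± 6.26 CPM and the old mean 29.0 ± 5.78 CPM (SD, n = 3 each). On the log2 scale the difference was -0.29 with a standard error of 0.19 and a 95% interval of -0.75 to 0.17 (edgeR, adjusted p = 0.391). Leaving out single libraries kept it between -0.42 and -0.14.

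Serpine2 encodes protease nexin 1, a serpin that inhibits thrombin, urokinase and tissue plasminogen activator. Its levels were 154, 50.8 and 87.0 CPM in young and 110, 56.3 and 187 CPM in old. Each group had libraries above 100 CPM and below 60 CPM, so that the spread within an age was larger than the difference between ages. The coefficient of variation was 53.8% in young and 55.7% in old. Old against young, the log2 fold change was 0.28 with a standard error of 0.53 and a 95% interval of -1.01 to 1.56 (edgeR, adjusted p = 0.775). Its sign turned without young replicate 2, where it was -0.033, and without old replicate 3, where it was -0.22.

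Serpinf1 had the lowest p of the 7 genes. It encodes pigment epithelium-derived factor, a secreted serpin that inhibits no protease and is known to restrain the growth of blood vessels. The young libraries were at 457, 579 and 568 CPM and the old libraries at 556, 749 and 1129 CPM. Old replicates 2 and 3 were above all young libraries, while old replicate 1 lay within the young range. The young mean was 535 ± 67.6 CPM and the old mean 812 ± 291 CPM (SD, n = 3 each). The log2 fold change was 0.60 with a standard error of 0.27 and a 95% interval of -0.046 to 1.25. The adjusted p was 0.241 and the unadjusted p 0.0638 from edgeR, while DESeq2 gave 0.160 and 0.0380. Without old replicate 1 the log2 fold change was 0.81 (edgeR, adjusted p = 0.0756), in a fit where the DEGs among all genes rose from 1 to 732 and 32.4% of all genes had an unadjusted p under 0.05. It was 0.29 when old replicate 3 was left out. Serpinf1 is abundant in fibroblasts, and the summed fibroblast markers were higher in each old library than in any young library. Col1a1, a collagen gene that smooth muscle cells also express, made up 92.4% to 95.8% of that sum. Without it (also chosen after the values were seen) the other 10 markers summed to 958 to 1274 CPM in young and 1289 to 2078 CPM in old. Of these 10, 8 were higher in old and 2, Mfap5 and Gsn, were lower. This sum was highest in old replicate 2, while Serpinf1 was highest in old replicate 3. In RNA of whole cultures, more cells of a type and more RNA per cell cannot be told apart, and the part of other cells in the Serpinf1 values was not tested.

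Anxa2 encodes annexin A2, which binds membranes in a calcium-dependent way, and S100a10 encodes p11, its light chain, which carries the lysine that plasminogen and its activator bind. Anxa2 was at 1338, 965 and 1242 CPM in young and at 1547, 659 and 785 CPM in old. The highest of the 6 libraries was old replicate 1, and the other old libraries were the lowest. The log2 fold change of Anxa2 was -0.25 with a standard error of 0.34 and a 95% interval of -1.07 to 0.58 (edgeR, adjusted p = 0.684). It moved with single old libraries. Without old replicate 1 it was -0.71 with an unadjusted p of 0.0123 and an adjusted p of 0.0753 from edgeR, in the same fit with 732 DEGs among all genes, and without old replicate 2 it was -0.021 with an unadjusted p of 0.953.

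S100a10 was at 300.1, 248 and 313 CPM in young and at 281, 138 and 265 CPM in old. Only old replicate 2 lay clearly below the rest, and the same library was the lowest of the 6 for Anxa2 and Plaur. The young mean was 287 ± 34.6 CPM and the old mean 228 ± 78.5 CPM (SD, n = 3 each). S100a10 had a log2 fold change of -0.33 with a standard error of 0.27 and a 95% interval of -0.99 to 0.33 (edgeR, adjusted p = 0.490). It was -0.073 without old replicate 2.

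The absence of a call does not show equal levels, and the intervals differ in what they allow. For 3 genes, Plat, Plaur and S100a10, the 95% interval lay inside log2 fold changes of -1 and 1. For S100a10 it did so only narrowly, with a lower limit of -0.991. For Plau, Serpine2, Serpinf1 and Anxa2 it reached beyond at least 1 of these limits.

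**Figure D2:**
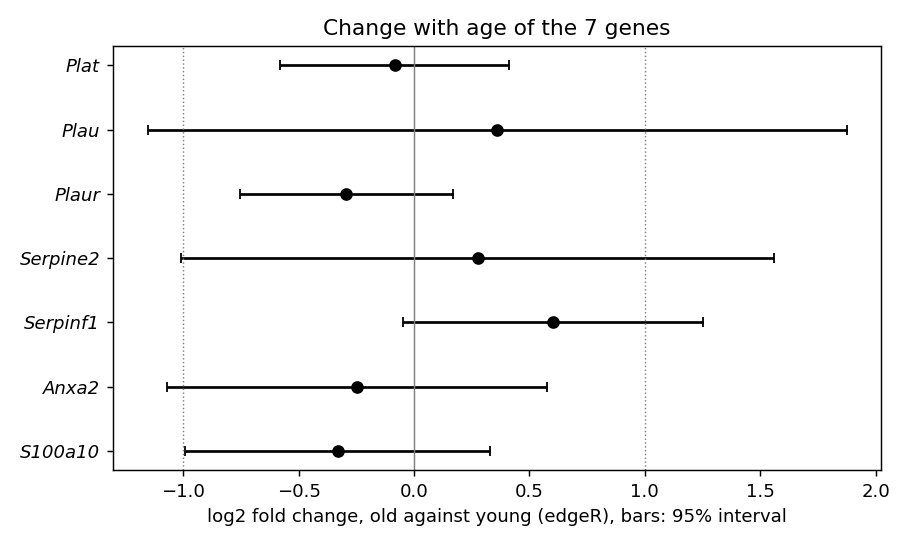
Log2 fold change of old against young VSM cells (x axis) for the 7 genes, with 95% intervals from edgeR and dotted lines at -1 and 1. The intervals of the 7 genes all include 0, the narrowest being those of Plaur and Plat.

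Ratios of 2 genes within a library do not depend on how libraries are scaled. The count ratio of Anxa2 to S100a10, the partners of the complex, was 4.46, 3.90 and 3.97 in young and 5.50, 4.78 and 2.96 in old, so that the young libraries lay inside the spread of the old ones. On the log2 scale the difference of old minus young was 0.058 (exact permutation test of 3 against 3 libraries, two-sided p = 0.90). The smallest p this design allows is 0.10. The ratio of Plau to Plat, the 2 activators, ranged from 0.0693 to 0.636 in young and from 0.191 to 0.560 in old, a log2 difference of 0.78 (exact p = 0.70). That of Plau to its receptor Plaur ranged from 0.222 to 1.88 in young and from 0.854 to 2.00 in old, a difference of 0.99 (exact p = 0.40). The ratio of Plat to its inhibitor Serpine2 ranged from 0.614 to 2.31 in young and from 0.733 to 1.85 in old, a difference of -0.35 (exact p = 0.80). After Benjamini-Hochberg adjustment over the 4 ratios each p was 0.90, and the groups overlapped in each.

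**Figure D3:**
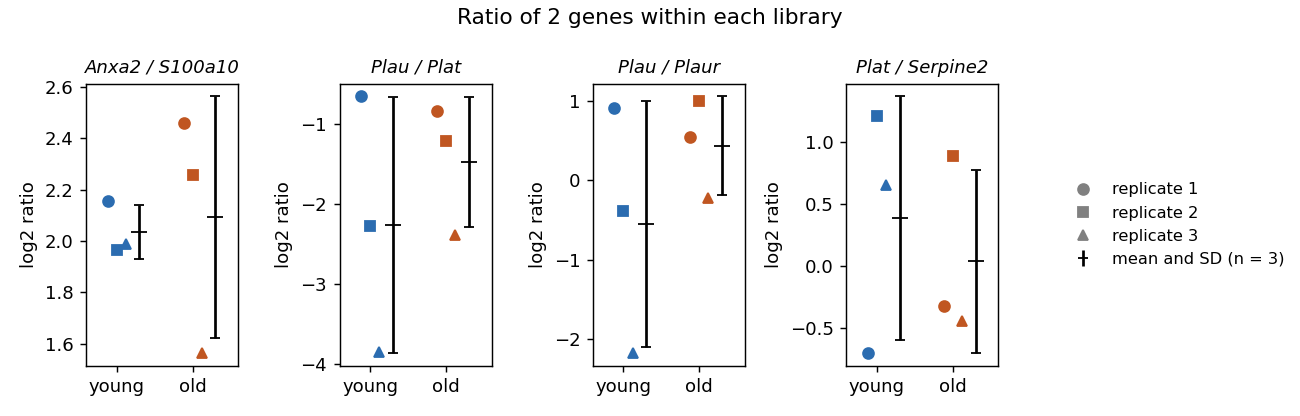
Log2 ratio of 2 genes within each library (y axis, its range differing by panel) in young and old VSM cells, with a symbol for each replicate and bars for the mean and SD (n = 3). Each of the 4 ratios overlaps between the ages.

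Other genes of the plasminogen system were read from a list of 18, of which 11 were in the table. Their levels were higher in old VSM cells for 8 and lower for 3, and their log2 fold changes had a median of 0.55. At an unadjusted p under 0.05 edgeR found 5 higher and 0 lower, which is 5 of 11 where 22.6% of all genes passed. edgeR called 0 of them as DEGs, with adjusted p of at least 0.115. DESeq2 called 2 of the 11, namely A2m and Serping1, where it called 5.56% of all genes.

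Of the 5 genes of this list with an unadjusted p under 0.05, 3 encode receptors. Lrp1, which takes up activators bound to their inhibitor, was at 1536, 1542 and 1134 CPM in young and at 1922, 3541 and 2189 CPM in old (log2 fold change 0.86 ± 0.28 standard error, edgeR adjusted p = 0.157). Igf2r, which binds the urokinase receptor, was at 619, 546 and 751 CPM in young and 853, 883 and 1072 CPM in old (log2 fold change 0.55 ± 0.17 standard error, edgeR adjusted p = 0.145). Mrc2, a collagen receptor associated with the urokinase receptor, was at 232, 146 and 58.1 CPM in young and 306, 351 and 283 CPM in old (log2 fold change 1.11 ± 0.46 standard error, edgeR adjusted p = 0.219). For each of the 3 the old libraries lay above the young ones. As the 3 were chosen by their p, this adds no support, and the groups stood apart in either direction for 29.2% of all genes. None of the 3 passed the adjusted threshold.

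Plasmin itself has inhibitors of its own. A2m, a broad protease inhibitor that traps plasmin, was at 1.24, 0.332 and 0.326 CPM in young and at 1.97, 11.5 and 4.55 CPM in old, or 16 to 56 and 98 to 597 counts (log2 fold change 3.26, adjusted p = 0.115 from edgeR). Serping1, the complement C1 inhibitor, was at 4.01, 4.74 and 3.40 CPM in young and 8.48, 40.1 and 9.72 CPM in old (log2 fold change 2.26, adjusted p = 0.129 from edgeR). Old replicate 2 was the highest library of both. A2m and Serping1 were named for their unadjusted p. Serpinf2, the gene of the plasmin inhibitor alpha2-antiplasmin, did not pass it. It had 33, 40 and 22 counts in young and 28, 70 and 61 counts in old, and its groups overlapped (log2 fold change 0.72, adjusted p = 0.333 from edgeR). Plasminogen itself (Plg), which is mainly made in the liver, had 22 to 50 counts in the young and 9 to 23 counts in the old libraries. Plgrkt, the gene of a plasminogen receptor, was at 33.9 ± 1.80 CPM in young and 28.2 ± 3.99 CPM in old (SD, n = 3 each, log2 fold change -0.26, adjusted p = 0.260 from edgeR). Ahnak, which binds the annexin A2 complex, and Eno1, a glycolytic enzyme that also binds plasminogen, had log2 fold changes of 0.48 and 0.18 (adjusted p = 0.243 and 0.758 from edgeR).

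The serpin family had members with higher and with lower levels in old VSM cells. Besides Serpine2 and Serpinf1, 10 serpin genes were described, 3 of them already counted in the list of the plasminogen system. Levels in old were higher for 4 and lower for 6 of the 10 (median log2 fold change -0.042), and 5 had an unadjusted p under 0.05, where 22.6% of all genes did. edgeR called 0 and DESeq2 called 4, where DESeq2 called 5.56% of all genes. The inhibitor of granzyme B, Serpinb9, was at 459, 538 and 510 CPM in young and at 97.7, 50.8 and 45.6 CPM in old, and its groups were far apart (log2 fold change -2.96, standard error 0.32, adjusted p = 0.0531 from edgeR). The intracellular serpins Serpinb6a and Serpinb6b, paralogs between which reads may have been divided, had log2 fold changes of -0.97 and -2.44 (adjusted p = 0.168 and 0.124 from edgeR). Serpine3 was at 11 to 20 counts in young and 33 to 42 counts in old (log2 fold change 1.35, adjusted p = 0.0974 from edgeR).

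**Figure D4:**
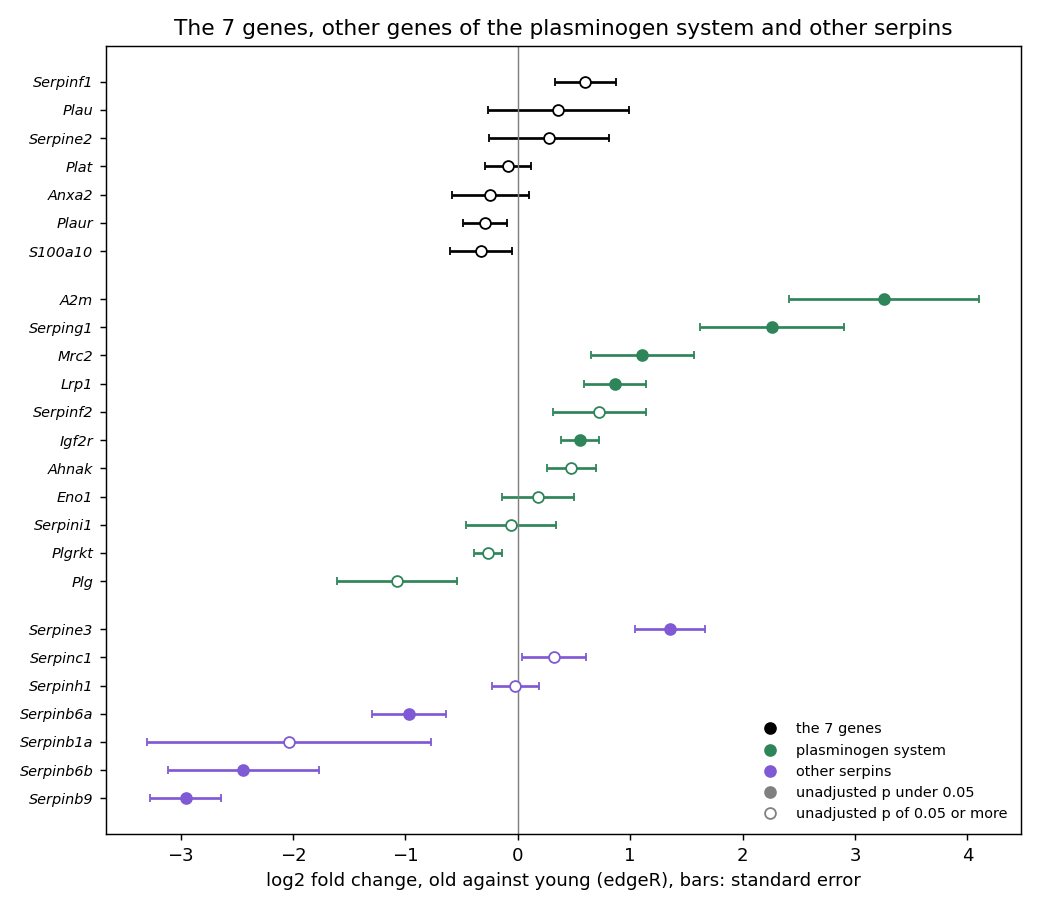
Log2 fold change of old against young VSM cells (x axis) with its standard error from edgeR for the 7 genes (black), 11 other genes of the plasminogen system (green) and 7 further serpins (purple), with filled symbols where the unadjusted p was under 0.05. The 7 genes lie between -0.33 and 0.60 and none is filled, while A2m lies at 3.26 and Serpinb9 at -2.96.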

How the data were processed

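The authors deposited raw gene counts, whole numbers without normalization. Per the labels and methods, reads were trimmed (Trim Galore 0.6.7), aligned with STAR 2.7.10b to rat assembly Rnor 6.0 and counted with featureCounts (Subread 2.0.8), and genes with low counts were removed. The methods name a RefSeq annotation, while the deposited table carries Ensembl identifiers, and the step between them was not given in the sources used here. For strand and for reads that map to several places the counting options were not given in the sources used here. Genes with close copies are therefore uncertain. Between 68.7% and 71.1% of counts from 1 to 19 were even, as when both mates of a pair are counted, so counting error is larger than a count implies. In R 4.3.3, all 14475 genes were tested with edgeR 4.0.16 (TMM, quasi-likelihood F test, Benjamini-Hochberg adjustment), young as reference and no covariates. Standard errors are the absolute log2 fold change over the square root of F, and intervals use the test's degrees of freedom. DESeq2 1.42.0 and limma-voom (limma 3.58.1) were alternatives, and the DESeq2 version of the study (1.46.0) was not used. The steps were tested on simulated data for the sign and size of planted changes, and not for the number of DEGs. The 7 genes, the gene lists and the tests were chosen with earlier results of these data known. Named genes were the 7, the genes of each list with an unadjusted p under 0.05 (at most 8) and the 2 genes most like each of the 7 by Pearson's r of log2(CPM + 1). A gene of the plasminogen system was also named where a result turned on it. Some listed genes are not reported here and were left out of the counts and medians of the lists. No sample column was left unused.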

Additional observations from a re-analysis of the deposited data

How the results depend on the processing

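The count of 0 DEGs among the 7 genes was the same under every alternative run. The runs were 2 other tests, 2 other normalizations, 2 filters, halved counts and a block on the replicate number. Single libraries were also left out and 2 other thresholds used. Most of these runs called 0 or 1 DEGs in the whole table, so there a count of 0 among the 7 shows little. DESeq2 called 5.56% of all genes and the fit without old replicate 1 called 732 genes, and neither called any of the 7. The count at an unadjusted p under 0.05 was 1 with DESeq2 (Serpinf1), and 0 to 2 with a library left out, where Plau passed without young replicate 1, and Anxa2 and Serpinf1 without old replicate 1. Of all genes, 16.7% passed without young replicate 1 and 32.4% without old replicate 1, where the DEGs among all genes numbered 732 instead of 1. The replicate numbers do not come from the same rats, and same-numbered libraries had correlations of their deviations of 0.059, 0.30 and 0.28, so the numbers were not taken as pairs. With the replicate block that count was 1 (Serpinf1). With a library left out, log2 fold changes ranged from -0.28 to 0.053 for Plat, from -0.071 to 1.25 for Plau and from -0.22 to 0.77 for Serpine2, each changing sign, while Plaur, Serpinf1, Anxa2 and S100a10 kept theirs. The sign of Plat turned without young replicate 3 (0.049) and without old replicate 1 (0.053). limma-voom and the replicate block put Plau at 0.70 and 0.69. The cause was not tested. The differences of log2 ratios ranged from -0.13 to 0.32 for Anxa2 to S100a10, from -0.014 to 1.59 for Plau to Plat, from 0.18 to 1.72 for Plau to Plaur and from -0.89 to 0.063 for Plat to Serpine2. Genes of the plasminogen system at an unadjusted p under 0.05 numbered 3 (without young replicate 2) to 6 instead of 5, and genes of the 6 lists together 12 (without young replicate 2) to 23 instead of 22, with 14 without young replicate 1 and 13 without old replicate 3, when a library was left out.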

Other observations

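Proteins that plasmin or its activators cleave were looked at by a list of 13 genes, of which 11 were in the table. Levels in old VSM cells were higher for 5 and lower for 6 of them (median log2 fold change -0.031). At an unadjusted p under 0.05 edgeR found 2 higher and 3 lower, where 22.6% of all genes passed, and DESeq2 called the 3 lower ones, where it called 5.56% of all genes. Bdnf, whose neurotrophin precursor plasmin can cut, was at 11.0 ± 7.12 CPM in young and 4.28 ± 0.420 CPM in old (SD, n = 3 each, log2 fold change -1.37, adjusted p = 0.162 from edgeR). Igfbp5 and Mmp3 had log2 fold changes of -3.02 and -1.83 (adjusted p = 0.145 and 0.167 from edgeR). The growth factor genes Pdgfc, whose product tissue plasminogen activator activates, and Pdgfd had log2 fold changes of 0.77 and 1.32 (adjusted p = 0.218 and 0.199 from edgeR). Fn1, the gene of fibronectin, was at 12203 to 13545 CPM in young and 14137 to 15497 CPM in old (log2 fold change 0.18, adjusted p = 0.627 from edgeR).

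Genes of clotting and its control, 10 of 14 in the table, had 5 higher and 5 lower members in old VSM cells and a median log2 fold change of -0.18. At an unadjusted p under 0.05 edgeR found 1 higher and 3 lower, where 22.6% of all genes passed, and these 4 are named next. DESeq2 called 1 of the 10, where it called 5.56% of all genes. The thrombin receptor gene F2r was at 469, 668 and 586 CPM in young and at 265, 224 and 277 CPM in old (log2 fold change -1.17, standard error 0.17, adjusted p = 0.0545 from edgeR), and DESeq2 called it. F2rl1 and Tfpi2 had log2 fold changes of -1.52 and -1.29 and Pros1, the gene of protein S, one of 0.54 (adjusted p = 0.186, 0.219 and 0.205 from edgeR). Tissue factor (F3) was at 789, 748 and 99.6 CPM in young and 785, 783 and 365 CPM in old, and young replicate 3 was its lowest library, as it was for Plau. Of 8 other annexins, Anxa3 and Anxa6 had an unadjusted p under 0.05, with log2 fold changes of -1.23 and -0.49 (adjusted p = 0.208 for both from edgeR). Of 10 other genes with a symbol starting with S100, S100a11 and S100a1 did, with log2 fold changes of -0.74 and 0.50 (adjusted p = 0.142 and 0.213 from edgeR). These are 2 of 8 and 2 of 10 genes, where 22.6% of all genes had such a p. Medians over these lists were 0.038 and -0.24.

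Apart from Csf1r and Rab32 for Plau, the genes most like each of the 7 across the 6 libraries were Tesk1 and Cfap100 for Plat, Pcdh7 and Mcu for Plaur, Smg9 and Cyp4f5 for Serpine2, Rit1 and Fbh1 for Serpinf1, Fggy and Tbca for Anxa2, and Cdc25b and Guk1 for S100a10. Their Pearson's r was between 0.954 and 0.997, the highest values found among all genes with at least 1 CPM on average, and they are given as a description only.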
